A study of Mus musculus with 24 samples.

Results

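The alpha-defensins (gene symbols beginning with Defa) and the secretory phospholipase A2 gene Pla2g2a were followed along the mouse gut by taking every probe set whose platform symbol begins with Defa, also where it lists several such genes, or is Pla2g2a. This rule found 8 of the 12488 probe sets of the array, 7 for alpha-defensins and 1 for Pla2g2a. Total RNA of whole tissue was measured on 24 single-sample arrays in 8 groups of 3: corpus, jejunum, descending colon and rectum of germ free mice, which carry no microbes, and the same 4 regions of conventional mice, which carry a microbiota. The corpus was the stomach without the antrum, the jejunum was the small intestine without its first and last stretches, and the descending colon and rectum were adjoining pieces of the end of the gut. Strain, age and sex are not given in the labels, nor whether equal sample numbers mark 1 mouse, and the spread behind each p-value is that among these arrays.

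Paneth cells sit at the base of small intestinal crypts and release antimicrobial proteins into the crypt lumen. In mice their alpha-defensins, also called cryptdins, are short cationic peptides made as precursors that the metalloproteinase Mmp7 cleaves, and they disrupt bacterial membranes. Pla2g2a encodes an enzyme that hydrolyses bacterial membrane phospholipids, and some laboratory strains, C57BL/6 among them, carry a frameshift in the gene that leaves no active enzyme. The reference gene table, of a C57BL/6J genome, annotates Pla2g2a on chromosome 4 as a transcribed pseudogene, and an array signal gives RNA and says nothing of active enzyme.

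The reference table holds 40 Defa genes and pseudogenes, 29 of them protein coding, and all 40 lie on chromosome 8. The 7 alpha-defensin probe sets list 9 Defa symbols. There is 1 probe set each for Defa23, Defa35 and Defa24 alone. The other 4 share the symbols Defa30, Defa23, Defa17, Defa3 and Defa31, and all but 1 of them add a symbol of their own, which is Defa-ps1, Defa24 or Defa2. The RNAs of this family are closely alike and a probe may bind several of them, so a symbol here names a probe set and not with certainty a gene.

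Promoter windows from RefSeq, build GRCm38.p6, were found for 5 of the 10 symbols that the members list, and 4 of them are shown because they differ in sequence and let the likeness of the family be seen. Each is 300 bases, 5′ to 3′, on the plus strand, and ends 50 bases after the annotated start of the gene. Capitals mark TCAAAG and TATAAA. Defa35 lies at chr8:21064788-21065087, Defa23 at chr8:21054790-21055089, Defa30 at chr8:21134400-21134699 and Defa2 at chr8:21378267-21378566.
Defa35: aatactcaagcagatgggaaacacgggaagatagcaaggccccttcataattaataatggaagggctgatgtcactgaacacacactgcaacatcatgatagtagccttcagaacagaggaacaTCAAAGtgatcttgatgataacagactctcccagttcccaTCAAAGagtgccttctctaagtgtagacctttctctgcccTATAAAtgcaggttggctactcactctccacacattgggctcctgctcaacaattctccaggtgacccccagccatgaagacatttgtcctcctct
Defa23: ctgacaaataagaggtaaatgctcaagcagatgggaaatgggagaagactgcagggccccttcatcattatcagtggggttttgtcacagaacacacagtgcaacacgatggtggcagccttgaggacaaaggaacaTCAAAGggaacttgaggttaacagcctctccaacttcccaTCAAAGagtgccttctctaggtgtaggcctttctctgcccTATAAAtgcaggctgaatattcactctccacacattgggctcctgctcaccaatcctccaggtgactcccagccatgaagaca
Defa30: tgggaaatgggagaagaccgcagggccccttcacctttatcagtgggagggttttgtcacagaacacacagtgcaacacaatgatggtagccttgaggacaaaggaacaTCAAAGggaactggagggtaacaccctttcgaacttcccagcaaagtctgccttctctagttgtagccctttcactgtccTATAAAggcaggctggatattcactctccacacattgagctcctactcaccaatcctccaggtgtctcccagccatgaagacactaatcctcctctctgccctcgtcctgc
Defa2: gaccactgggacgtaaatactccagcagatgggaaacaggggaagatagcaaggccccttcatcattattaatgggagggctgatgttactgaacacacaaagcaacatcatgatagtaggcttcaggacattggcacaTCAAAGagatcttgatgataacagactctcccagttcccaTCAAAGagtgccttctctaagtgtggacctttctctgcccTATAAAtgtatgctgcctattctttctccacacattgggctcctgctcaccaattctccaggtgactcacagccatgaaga

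The window of Defa31 was identical to that of Defa23 over all 300 bases, and the other pairs were 65.8% to 82.5% identical over their alignments. TCAAAG, on either strand, was in 5 of 5 windows, against 16% of the 32851 promoter windows of the same table. It stood 2 times in each window except that of Defa30, which held 1 copy. TATAAA was in 5 of 5, against 13.6% of all windows, and the share of all windows with both was 2.69%. In all, 10 patterns were searched on both strands, and the pair in capitals was chosen after the matches were seen. One of the 10, CTTTGA, is the reverse complement of TCAAAG. The shorter pattern CAAAG lies within it and was in 5 of 5 (53.9% of all). Nearly the same letters were searched as CTTTGN, in 5 of 5 (53.8% of all). The pattern GATAA was in 5 of 5 (25.4% of all). Of the others, CTTTGT was in 4 of 5 (18.7% of all). The patterns CACGTG (7.15% of all), TTTATT (19.6% of all) and TTACTT (11.4% of all) were in 0 of 5. The windows are copies of each other in large part, so these are not 5 separate observations.

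The region markers opposed the labels of 3 libraries. The libraries labelled germ-free corpus 3 and conventional jejunum 3 carried the hindgut homeobox gene Hoxb13 at 1399.4 and 1625.8, and the library labelled conventional rectum 1 carried Apoa4, an enterocyte apolipoprotein, at 2765.9. Over 9033 probe sets the nearest library of germ-free corpus 3 was germ-free descending colon 3 (Pearson r = 0.987), that of conventional jejunum 3 was conventional rectum 2 (0.965), and that of conventional rectum 1 was conventional jejunum 1. The r of 0.987 was the highest of any library with its nearest. Prss2, taken here as a pancreatic marker, was at 3218.4 in germ-free corpus 3 and at 3255.1 in germ-free descending colon 3. The other germ-free descending colon libraries had it at 4.3 and 785. Whether germ-free corpus 3 and germ-free descending colon 3 hold the same sample was not tested. Some markers also stood apart in libraries that stay in every result. Germ-free rectum 1 had Atp4a, the gastric proton pump, at 1967.8, germ-free jejunum 3 had it at 874.3, and Hoxb13 was only at 111.6 in germ-free descending colon 1, against 1082.2 or more in the other descending colon libraries. Car1, taken here as a hindgut marker, was at 1432.5 in germ-free corpus 2, against 9.2 to 15.7 in the other corpus libraries that stay. All libraries stay under their labels below, and "without 3 libraries" leaves out the 3 marker-opposed libraries, a choice made after seeing the data. Signals are linear intensities, and each array's median lay between 68.6 and 103.5. For log2 differences, signals under 21.2 were raised to that floor. A probe set was tested when its signal was above 51.5 on at least 3 arrays. Of the 8 members, 7 passed this filter. The probe set of Defa24 alone did not: it lay between 5.5 and 28.3 and was above 51.5 on 0 arrays. The filter can be passed through 1 region alone, so a count over the 6 tested alpha-defensin probe sets is not a count over the family.

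The 6 tested alpha-defensin probe sets were among the brightest of the array in the jejunum and low in the other regions, apart from the marker-opposed libraries labelled conventional jejunum 3 and conventional rectum 1. Defa35 had signals of 13067, 9417.7 and 16917.6 in germ-free jejunum, and of 9131.1, 18208.3 and 62.1 in conventional jejunum. The low value belongs to the library labelled conventional jejunum 3. In the corpus it had 190, 52.2 and 31.2 in germ-free mice and 11.2, 11 and 37.5 in conventional mice. Defa23 showed the same order. Its signals were 13949.5, 9877 and 15576.3 in jejunum of germ-free mice, against 8853.3, 20671.6 and 54.4 in jejunum of conventional mice. In whole tissue, fewer cells of a type and less RNA per cell cannot be told apart.

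Apoa4 was above 2000 in 6 libraries: the 3 germ-free jejunum libraries, conventional jejunum 1 and 2 and the library labelled conventional rectum 1. In these 6 the tested alpha-defensin probe sets lay between 8552 and 20672, and in the other 18 libraries none was above 592.2. Within an array of the 6, the brightest of them was 1.07 to 1.27 times the dimmest, and all ranked between 1 and 14 of 12488. They reached 62.7% to 100% of the array's highest signal, so they sat near the top of the scale, and whether signal still followed RNA there was not tested. In the library labelled conventional rectum 1 the alpha-defensins were at 8552 to 9268, and in the library labelled conventional jejunum 3 at most at 81.2.

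**Figure D1:**
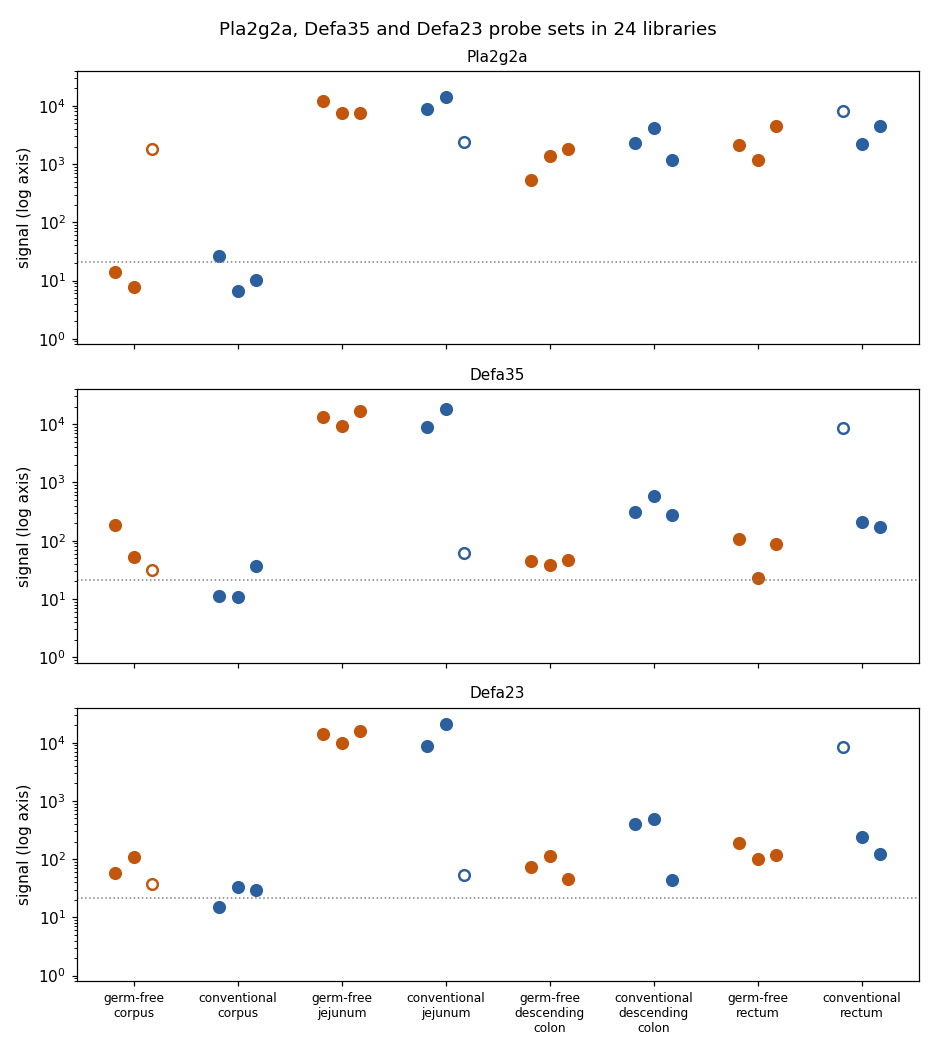
Signal (log axis) of Pla2g2a, Defa35 and Defa23 in each of 24 libraries, by labelled group; open circles are the 3 libraries whose region markers opposed their labels, and the dotted line is the floor of 21.2. Defa35 and Defa23 were high in 6 libraries, while Pla2g2a was at 522.4 or more in every library except 5 of the corpus.

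Pla2g2a was high in the jejunum, intermediate in the descending colon and rectum, and low in the corpus. In the corpus it had signals of 13.9, 7.7 and 1791.6 in germ-free mice and 26.4, 6.6 and 10.1 in conventional mice. Its jejunum signals were 12264, 7463 and 7451.3 in germ-free mice and 8738.2, 14330.3 and 2395.5 in conventional mice. The corpus value of 1791.6 and the jejunum value of 2395.5 are those of the marker-opposed libraries.

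In the descending colon Pla2g2a had 522.4, 1384.5 and 1800.2 in germ-free mice and 2303.1, 4165.3 and 1182.6 in conventional mice. In the rectum it had 2146.2, 1153.5 and 4530.4 in germ-free mice and 8130.1, 2247.6 and 4443.6 in conventional mice. Without 3 libraries the order was jejunum (7451 to 14330), then rectum and descending colon, which overlapped (1154 to 4530 and 522.4 to 4165), then corpus (6.6 to 26.4). The jejunum and corpus did not overlap with their neighbours in this order.

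In germ-free mice Pla2g2a averaged 9059 ± 2775 in the jejunum and 604.4 ± 1028 in the corpus (SD, n = 3 each), a log2 difference of 6.56 ± 1.14 (SE; limma adjusted p = 0.00112, and 0.0579 in a fit of the 6 arrays compared). Of the 3 corpus values 2 were under the floor and the third was that of the marker-opposed library, so the difference depends on both. Without 3 libraries both remaining corpus values were under the floor and it was at least 415-fold higher. In conventional mice the log2 difference of Pla2g2a was 8.20 ± 1.14 (limma adjusted p = 0.000126), with 2 of 3 corpus values under the floor.

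All 6 tested alpha-defensin probe sets had higher jejunum than corpus signals in germ-free mice (limma adjusted p between 0.00222 and 0.00413). The background was 8.57% of the 9033 tested probe sets called higher. Without 3 libraries 6 of 6 were called, against 12.4% of all. Their median log2 difference over all libraries was 7.44, beside -0.16 over all tested. Defa35 averaged 13134 ± 3750 in the jejunum and 91.1 ± 86.3 in the corpus (SD, n = 3 each), a 189-fold difference. In conventional mice 6 of 6 were higher as well (adjusted p between 0.00538 and 0.0255), where 7.85% of all were called higher, with a median of 6.05 beside -0.04 over all. Leaving out conventional jejunum 1 or conventional jejunum 2, which leaves the library labelled conventional jejunum 3 as 1 of 2, left 1 of 6 called in each case, that of Defa35. Leaving out 1 conventional corpus library left 4 or 5 of 6 called. The probe set with Defa2 was not called in 5 of the 6 omissions, nor was it with no filter on low signals. A fit of the 6 arrays compared alone called 0 of 6. The share of all tested probe sets called was not counted in these refits, so fewer calls may not be particular to the alpha-defensins. Without 3 libraries 6 of 6 were called (adjusted p of at most 1.2e-08), against 11.5% of all.

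The descending colon set Pla2g2a and the alpha-defensins against the same jejunum libraries. In germ-free mice 6 of 6 alpha-defensin probe sets were lower in the descending colon (median log2 difference -7.46, beside 0.17 over all; adjusted p between 0.00373 and 0.00943), where 4.26% of all tested were called lower. Defa35 averaged 43.3 ± 3.80 in the descending colon and 13134 ± 3750 in the jejunum (SD, n = 3 each), 296-fold lower. Pla2g2a was 8.06-fold lower there (1236 ± 652 and 9059 ± 2775; log2 difference -3.01 ± 1.14, SE), which did not pass over all libraries (adjusted p = 0.0876) and passed without 3 libraries, none of which is in this comparison (adjusted p = 0.000245; 6.96% of all called lower).

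In conventional mice 0 of 6 alpha-defensin probe sets were called between descending colon and jejunum, and 0% of all tested were called lower. The medians were -3.50 for them and 0.03 for all. By limma's unadjusted p, 5 of the 6 were under 0.05, from 0.0162 to 0.0443, and Defa35 was at 0.107. Without 3 libraries 6 of 6 were lower, at a median of -6.03, where 5.06% of all were called lower. Pla2g2a then differed by -2.32 ± 0.55 on the log2 scale (SE; adjusted p = 0.00837).

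The comparison of descending colon with corpus was added after Pla2g2a was seen to be high in the colon. In conventional mice Pla2g2a was higher in the descending colon (2550 ± 1507 and 14.4 ± 10.6, SD, n = 3 each; limma adjusted p = 0.000534). The log2 difference of 6.62 ± 1.14 (SE) depends on the floor, which 2 of the 3 corpus values were under. Of the alpha-defensin probe sets 0 of 6 passed there, with 6.12% of all tested called higher. Without 3 libraries, none of which is in this comparison, 5 of 6 passed, with 9.53% of all called higher. Defa35 had a log2 difference of 3.85 in both fits. Its SE was 1.51 over all libraries (limma adjusted p = 0.104) and 0.51 without 3 (adjusted p = 1.21e-05). Of its 3 conventional corpus values 2 were under the floor. In germ-free mice Pla2g2a differed by 3.55 ± 1.14 on the log2 scale and did not pass (adjusted p = 0.117), and without 3 libraries it was at least 51.5-fold higher (adjusted p = 2.99e-07). Of the alpha-defensin probe sets 0 of 6 passed in germ-free mice with or without the 3 libraries, where 0% and 9.59% of all were called higher. That Pla2g2a and the alpha-defensins differ in their regional pattern was not tested as a difference between probe sets.

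**Figure D2:**
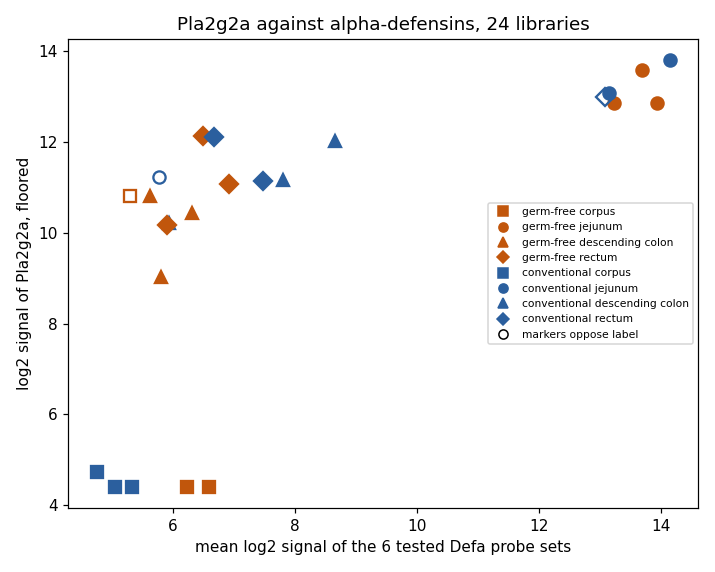
Floored log2 signal of Pla2g2a against the mean log2 signal of the 6 tested alpha-defensin probe sets, 1 point per library; colour gives the state, shape the labelled region, and open symbols the 3 marker-opposed libraries. The points lie in 3 clusters: corpus with both low, descending colon and rectum with intermediate Pla2g2a and low alpha-defensins, and jejunum with both high, apart from the open symbols.

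Across the 24 libraries the alpha-defensin probe sets followed each other closely, with a Pearson r of 0.961 to 0.996 over their 15 pairs. Pla2g2a correlated with them at 0.613 to 0.685 over 6 pairs. These values describe libraries that fall into 3 clusters by region and share their alpha-defensin probes' targets. The single-gene probe sets most like Pla2g2a over the 24 libraries were Abhd11os (r = 0.966), Spink4 (0.964), Krt20 (0.963), S100a10 (0.959), Crip1 (0.958) and Cdhr5 (0.957). Those most like the mean of the alpha-defensins were Cps1 (0.97), Pnp (0.965), Pdzk1 (0.964, with both of its probe sets), Cyp3a11 (0.964) and Gip (0.963). Cps1, a mitochondrial enzyme that makes carbamoyl phosphate, had 3214.3 to 5225.1 in germ-free jejunum and at most 160.2 in the descending colon and rectum apart from the library labelled conventional rectum 1.

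Germ-free and conventional mice were compared in each region, and none of the 7 tested members passed in any region over all libraries. The shares of all tested probe sets called were 0% in the corpus, 0.465% in the jejunum, 0.0111% in the descending colon and 0.0111% in the rectum, and without 3 libraries they were 0.0664%, 0.565%, 0.0886% and 0.0111% in the same order. By limma's unadjusted p, 1 of these 28 tests was under 0.05, that of Defa35 in the rectum (adjusted p = 0.982). The limma F test of whether the effect of microbial state differed between regions called 0 of the 7, with 0.0221% of all tested called. Without 3 libraries it called Defa35 alone (F = 16.1, adjusted p = 0.0281), with 0.0775% of all called.

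The jejunum difference of the alpha-defensins rested on the marker-opposed library. Over all libraries the alpha-defensins had a median log2 difference of 2.53, germ-free minus conventional, beside -0.02 over all tested. Without 3 libraries the median was -0.02, and Defa35 differed by -0.01 (95% interval -1.21 to 1.18). Pla2g2a averaged 9059 ± 2775 in germ-free jejunum (n = 3) and 11534 ± 3954 in conventional jejunum (n = 2) without 3 libraries, a log2 difference of -0.35 (95% interval -1.51 to 0.82). These intervals leave room for a change of over 2-fold in either direction for Defa35.

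In the descending colon Defa35 had 44.7, 39 and 46.2 in germ-free mice, against 313.2, 592.2 and 275.3 in conventional mice. The groups did not overlap, as for 14% of all tested probe sets in this comparison. The log2 difference was -3.10 ± 1.51 (SE; 8.59-fold lower), which did not pass over all libraries (limma adjusted p = 0.629) and passed without 3 libraries, none of them in this region (adjusted p = 0.0183). A fit of the 6 arrays compared gave an adjusted p of 0.206. Leaving out 1 library at a time, germ-free descending colon 1 included, gave log2 differences of -3.32 to -2.77. Defa35 passed in none of these omissions (limma adjusted p between 0.493 and 0.944). Without 3 libraries 1 of 6 alpha-defensin probe sets was called lower there, where 0.0554% of all were.

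The other 5 alpha-defensin probe sets overlapped between the states in the descending colon. Defa23 had 72, 111.3 and 45.9 in germ-free mice and 400.8, 481.2 and 44.4 in conventional mice, so that conventional descending colon 3 lay with the germ-free libraries. In that library Defa35 was at 275.3 and the other tested alpha-defensin probe sets at 1.2 to 67.5. In the rectum Defa35 had 107.1, 22.9 and 89.2 in germ-free mice and 8568.1, 211.5 and 170.1 in conventional mice, where the 8568.1 is the marker-opposed library. The groups did not overlap, as for 11.1% of all tested. Without it the log2 difference of Defa35 in the rectum was -1.65 ± 0.57 (SE; adjusted p = 1). In the corpus the difference of Defa35 had the opposite sign and did not pass, at 1.40 ± 1.51 over all libraries and 1.96 ± 0.57 without 3 (adjusted p = 0.793 and 0.354). Of the 3 conventional corpus values 2 were under the floor. In the 18 libraries with low Apoa4 no alpha-defensin signal was above 7.43% of its array's highest, and the part of cross-binding by other RNA was not tested.

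**Figure D3:**
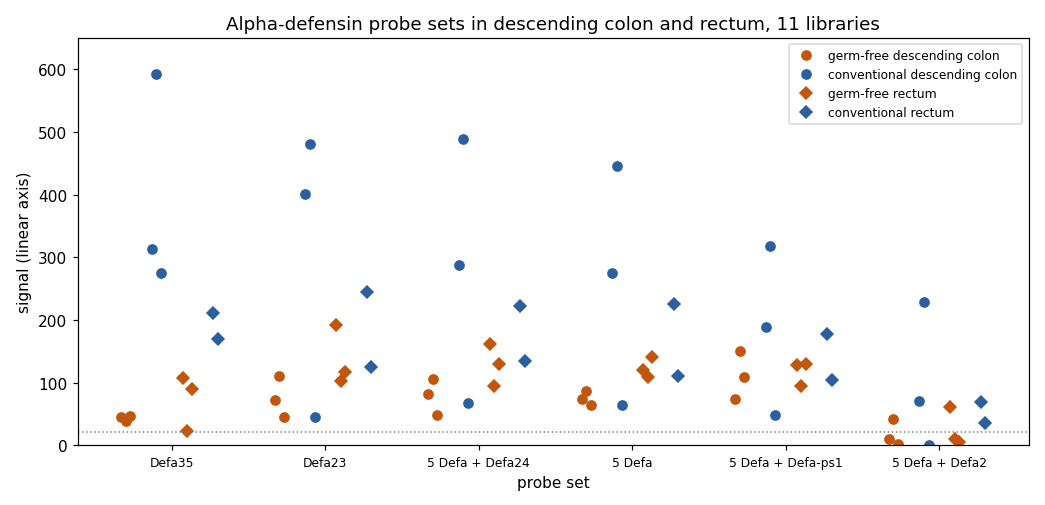
Signal (linear axis) of the 6 tested alpha-defensin probe sets in descending colon (circles) and rectum (diamonds) of germ-free (orange) and conventional (blue) mice, without the library labelled conventional rectum 1; 5 Defa stands for the shared 5 symbols, with the added symbol after it. Defa35 lay at 39 to 46.2 in germ-free descending colon and at 275.3 to 592.2 in conventional descending colon, while the other probe sets overlapped.

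Pla2g2a in the descending colon averaged 1236 ± 652 in germ-free mice and 2550 ± 1507 in conventional mice (SD, n = 3 each), a log2 difference of -1.04 ± 1.14 (SE; adjusted p = 0.834). In the rectum the difference was -0.95 ± 1.14 (adjusted p = 0.982) and -0.50 without 3 libraries. In the corpus the difference of 2.03 ± 1.14 rested on the library labelled germ-free corpus 3 and was -0.11 without it.

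**Figure D4:**
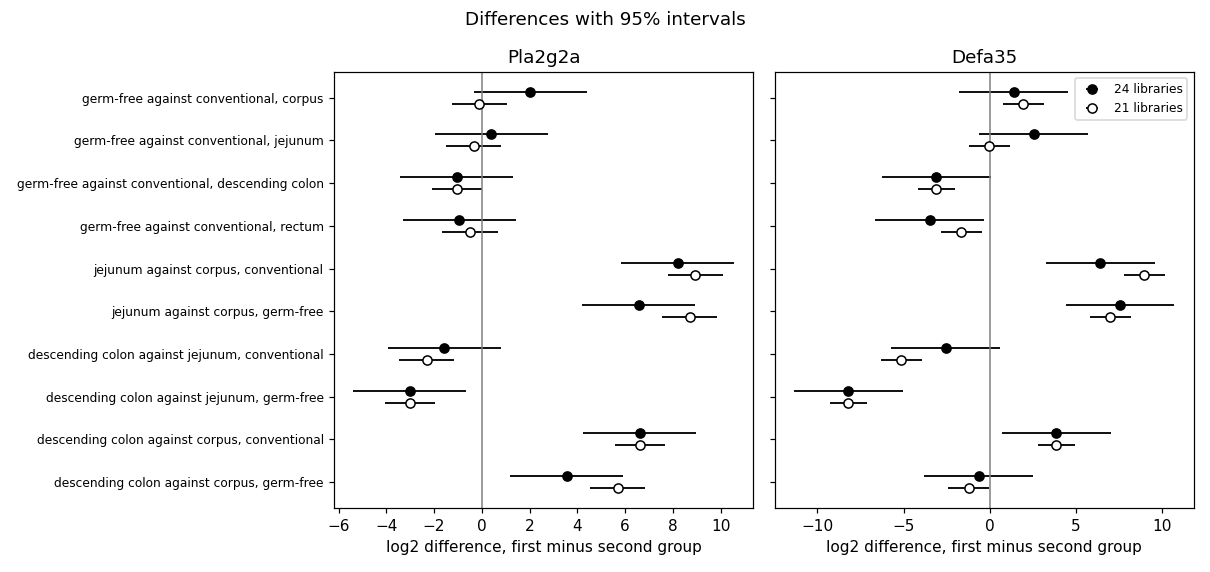
Log2 differences, first minus second named group, of Pla2g2a (left) and Defa35 (right) with 95% intervals from limma; filled points use 24 libraries and open points 21. Intervals were narrower without the 3 libraries in every comparison shown, and the jejunum difference between states was 2.55 with 24 libraries and -0.01 with 21 for Defa35.

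Other genes linked to Paneth cell granules and maturation were taken from a list of 33, of which 21 were tested with 23 probe sets. Not all of them are particular to that cell. Guca2b, for 1, was 12.1-fold higher in conventional descending colon than in conventional corpus (limma adjusted p = 0.0069). Between jejunum and corpus in germ-free mice 7 of the 23 probe sets were higher and 0 lower, where 8.57% of all tested were called higher and 13.2% lower, at a median of 0.70 beside -0.16 over all. The genes called were Guca2b, Itln1, Lyz2, Mmp7, Rab8a and Reg3a. Without 3 libraries 10 were higher and 2 lower, against 12.4% and 16.7% of all. Mmp7, which cleaves the alpha-defensin precursors, had 2442, 1370.8 and 850.9 in germ-free jejunum and at most 17.3 in germ-free corpus, and was at least 66.9-fold higher (adjusted p = 0.00878). Lyz2, a lysozyme gene that macrophages also express, was 5.56-fold higher (adjusted p = 0.012). In conventional mice 7 of 23 were higher and 2 lower, against 7.85% and 10.9% of all, and without 3 libraries 10 were higher and 2 lower, against 11.5% and 14.3% of all.

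Outside the jejunum Mmp7 was above 59.6 in 2 libraries. It was at 2027.1 in the library labelled conventional rectum 1 and at 344.5 in germ-free descending colon 1, where no alpha-defensin probe set was above 81.5. That library also had Fabp2, which binds fatty acids in enterocytes, at 4005.1. Itln1, an intestinal lectin chosen here after its values were seen, was at 6225.6 to 10409.2 in germ-free jejunum. It reached 7478.4 in germ-free rectum 3 and 5051.6 in conventional descending colon 2, where the alpha-defensins were at most at 140.6 and 592.2. Lyz1 and Ang4 had no probe set naming them alone. Ang, an angiogenin gene, lay between 149.1 and 256.3 in germ-free jejunum and had 84.6, 116 and 163.8 in germ-free corpus, the last in the marker-opposed library.

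In the jejunum the list had 0 of 23 probe sets called between the states over all libraries, where 0.465% of all were called. Reg3a, a C-type lectin, had 1755, 1473.8 and 1439.1 in germ-free jejunum, against 587.5, 531 and 1.4 in conventional jejunum, the last in the marker-opposed library. It did not pass over all libraries (adjusted p = 0.183) and was 2.78-fold higher without 3 (adjusted p = 0.0041), while its second probe set did not pass (adjusted p = 0.144). Guca2b, which encodes uroguanylin, and Fgfr3, a growth factor receptor, did not pass either way (adjusted p between 0.249 and 0.408).

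Of 26 other mucosal antimicrobials 16 were tested with 23 probe sets, and 0 of 23 were called between the states in the jejunum over all libraries, where 0.465% of all were called. Without 3 libraries 0 were higher and 3 lower in germ-free mice, where 0.565% of all were called. Reg3g, a lectin that binds Gram-positive bacteria, had 116.6, 332.8 and 439.2 in germ-free jejunum, against 1546.5, 2714.4 and 4.6 in conventional jejunum, the last in the marker-opposed library. It was 7.96-fold lower in germ-free jejunum without 3 libraries (adjusted p = 0.00528), and its second probe set did not pass (adjusted p = 0.215). Saa2, a serum amyloid A gene, was 15.4-fold lower (adjusted p = 0.0025) and Pglyrp1, a peptidoglycan recognition protein, 2.21-fold lower (adjusted p = 0.0127; 0.144 for its second probe set). Reg3b, a related lectin, did not pass (adjusted p = 0.182 and 0.74), nor did Defb2, a beta-defensin (adjusted p = 0.493 over all libraries). Whether the state affects these genes and the alpha-defensins differently was not tested.

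Of 15 phospholipase A2 genes and receptors 10 were tested with 12 probe sets. Between the states in the jejunum 0 of 12 were called with or without the 3 libraries, where 0.465% and 0.565% of all were called. Between jejunum and corpus in germ-free mice 1 was higher and 3 lower, near the 8.57% of all called higher and against 13.2% called lower. Without 3 libraries 1 was higher and 7 lower, against 12.4% and 16.7% of all. Pla2g4a, the cytosolic phospholipase, was 4.00-fold lower in germ-free jejunum than in germ-free corpus (adjusted p = 0.00487), while Pla2g5, another secretory form, did not pass (adjusted p = 0.736 and 0.367 for its probe sets). Plaa, a phospholipase A2 activating protein, had 41, 45.9 and 86.7 in germ-free jejunum. It had 96, 95.3 and 63.5 in conventional jejunum, the last in the marker-opposed library.

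**Figure D5:**
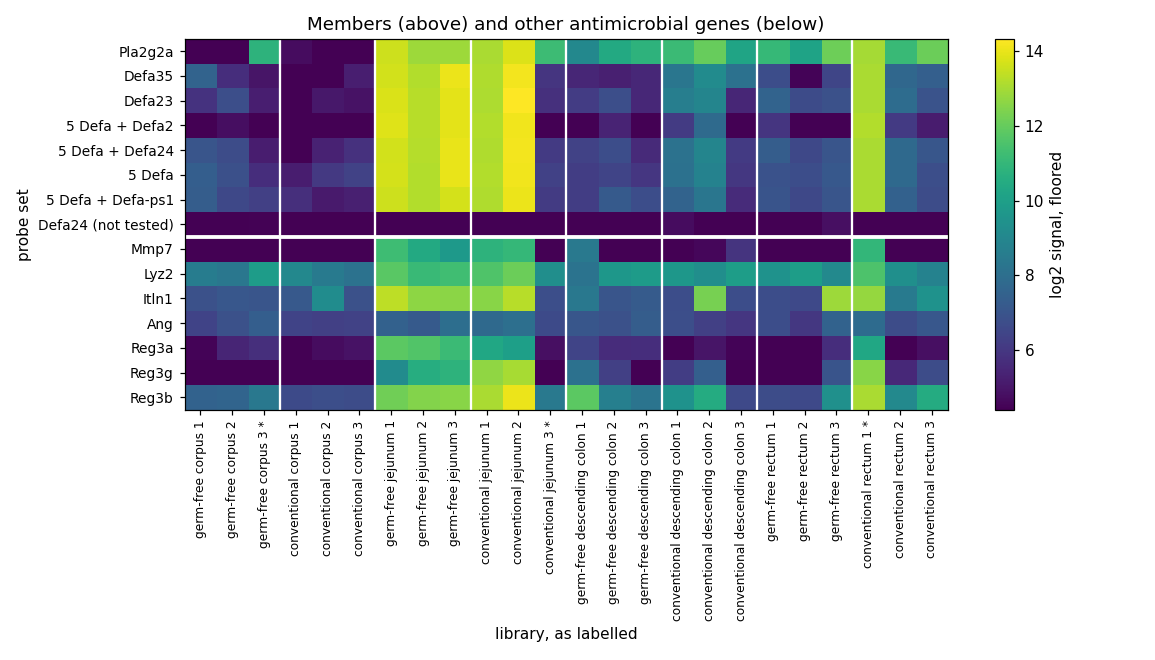
Floored log2 signal of the 8 members (above the white line) and of other antimicrobial genes (below) in 24 libraries as labelled, germ-free left of conventional in each region; asterisks mark the 3 marker-opposed libraries, and 5 Defa stands for the shared 5 symbols. Alpha-defensins and Mmp7 are bright in the same 6 libraries, Pla2g2a also in descending colon and rectum, and Defa24 in none.

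Markers of other cell types were read over the same groups. The summed signal of 4 neutrophil marker probe sets was 132.9 to 469 over all groups, highest in conventional corpus. The median of single probe sets was 68.6 to 103.5 by array. The summed goblet cell signal of 8 probe sets was 32937 to 60917 in germ-free jejunum, descending colon and rectum, and 34042 to 55649 in the same regions of conventional mice, so that it was high wherever Pla2g2a was. In the corpus it was 1539 to 40543 in germ-free mice, the highest in a group with 1 marker-opposed library, and 1516 to 2835 in conventional mice. The part of goblet cells in the Pla2g2a signal was not tested.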

How the data were processed

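The authors deposited linear signal intensities of 12488 probe sets on 24 arrays. Their middle 96% averaged 200.1 to 200.14 on every array, so the deposited signals were taken as already scaled to a trimmed mean. The software behind the signals is not given in the labels, and no further scaling was applied. Signals were floored at 21.2 (25th percentile), filtered at 51.5 (40th percentile) on 3 arrays, and put on the log2 scale; 66 control probe sets were left out and 9033 tested. Names come from the platform annotation: 10855 probe sets list 1 gene, 396 several and 1237 none.

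Means of the 8 groups were fitted with limma 3.58.1 (R 4.3.3, statmod 1.5.0) with an intensity trend. P-values are two-sided, Benjamini-Hochberg adjusted over all 9033, and called under 0.05. The fit was tested on simulated data. The members, gene lists and tests were chosen with earlier results of these data known. Named genes were every member, the 6 single-gene probe sets most like Pla2g2a and most like the mean alpha-defensin, up to 4 of lowest p per list in the jejunum, and Mmp7, Lyz1, Lyz2, Ang, Ang4, Reg3g and Reg3b where measured. Itln1, Fabp2, Apoa4, Hoxb13, Car1, Prss2 and Rab8a were named after their values were seen. Alternatives covered floor, filter, scaling, trend, replicate block, arrays fitted and each array left out. The number of arrays limits the precision.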

Additional observations from a re-analysis of the deposited data

Results flagged for a closer look

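The limma F test of whether the effect of microbial state differs between the 4 regions gave F = 16.1 for Defa35 without 3 libraries (adjusted p = 0.0281), a result chosen after seeing the data. Over all libraries the same test gave F = 4.16 (adjusted p = 0.898). Without 3 libraries the log2 differences, germ-free minus conventional, were 1.96 in the corpus, -0.01 in the jejunum, -3.10 in the descending colon and -1.65 in the rectum. The corpus value rests on 2 germ-free libraries, at 190 and 52.2, and 3 conventional ones, of which 2 were under the floor. Conventional jejunum and conventional rectum had 2 libraries each. Defa35 lay lower in 3 of 3 germ-free descending colon libraries than in any conventional one. No other member passed this test without 3 libraries, where Pla2g2a had F = 0.588 (adjusted p = 0.99).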

How the results depend on the processing

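The 3 marker-opposed libraries moved more results than any other setting tried. Without 3 libraries Pla2g2a between the states became -0.105 in the corpus and -0.346 in the jejunum, and the alpha-defensin probe sets in the jejunum became -0.0687 (Defa23), -0.12 (set with Defa-ps1), -0.022 (set with Defa24), -0.0165 (set of 5 symbols), -0.0141 (Defa35) and 0.0304 (set with Defa2). Calls of alpha-defensins then became 1 between the states in the descending colon (0.0554% of all tested called lower) and 1 in the interaction (0.0775% of all). In conventional mice they became 6 for descending colon against jejunum (5.06% of all lower) and 5 for descending colon against corpus (9.53% of all higher). Between the states in the descending colon and for conventional descending colon against corpus, none of the 3 libraries is compared. There the differences were the same and the fitted spread was smaller. Pla2g2a passed at -2.32 and -3.01 for descending colon against jejunum in conventional and germ-free mice and at 5.69 for descending colon against corpus in germ-free mice, where Defa23 and the set with Defa-ps1 turned to -0.167 and -0.205. These changes come with fewer samples and a smaller fitted spread.

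Fitting only the arrays compared called 0 alpha-defensins for jejunum against corpus and 1 for descending colon against corpus in conventional mice. The share of all tested probe sets called was not counted in these fits. Pla2g2a then no longer passed for jejunum against corpus in germ-free mice (6.56) and passed for descending colon against jejunum in germ-free mice (-3.01). With array medians equalised the set with Defa-ps1 was -0.0259 for descending colon against corpus in germ-free mice.

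Leaving out 1 library at a time, the alpha-defensin calls ran from 1 to 6 for jejunum against corpus and from 0 to 6 for descending colon against jejunum in conventional mice. The share of all tested probe sets called was not counted for these omissions. Pla2g2a ran from -0.105 to 3.10 in the corpus and from -0.346 to 0.944 in the jejunum between the states, and from 2.49 to 5.69 for descending colon against corpus in germ-free mice. The alpha-defensins between the states in the jejunum ran from -0.0687 to 4.22 (Defa23), -0.12 to 3.84 (set with Defa-ps1), -0.022 to 4.01 (set with Defa24), -0.0165 to 3.87 (set of 5 symbols), -0.0141 to 4.08 (Defa35) and 0.0304 to 4.89 (set with Defa2). The set with Defa-ps1 ran from -1.20 to 0.148 between the states in the descending colon. For descending colon against corpus in germ-free mice the alpha-defensins ran from -0.167 to 0.613 (Defa23), -0.238 to 0.307 (set with Defa-ps1), -0.659 to 0.25 (set with Defa24), -0.891 to -0.059 (set of 5 symbols), -0.123 to 0.368 (set with Defa2) and -1.21 to 0.0977 (Defa35).

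Equal numbers were not taken to pair the samples, and not every same-numbered pair correlated above 0.1. Deviations from the labelled group means correlated at -0.497 to 0.666 in all. They correlated at 0.16 to 0.455 for germ-free number 3 and at 0.0178 to 0.433 for germ-free number 1. The marker-opposed libraries are within these means and shift them, so the check cannot decide on pairing. Whether equal numbers mark 1 mouse is not known. With the number as a replicate block, Pla2g2a had the same difference of 6.56 for jejunum against corpus in germ-free mice. Each number occurs once in every group, so a block cannot change a difference, only its spread. Neither form of the block changed a call of Pla2g2a or a count of alpha-defensin calls. Signals under the floor have no order, which limits the alpha-defensins in the corpus and Pla2g2a there.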
